A study of Homo sapiens with 6 samples.

Results

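The genes of adenosine deaminase and of 9 further enzymes of purine salvage and adenosine turnover were followed in WT and *FGFR2* KO keratinocytes. The set held *ADA*, *ADK*, *NT5E*, *AMPD2*, *AMPD3*, *PNP*, *HPRT1*, *APRT*, *SAMHD1* and *DGUOK*, found as the rows whose Ensembl identifier carries these symbols in GENCODE, which gave 10 of the 21475 genes in the deposited tables. The genes were chosen by their place in the pathway with the KO to WT differences of these same libraries already known, so those differences are given as a description and support nothing beyond the values themselves. No test of the set was made, and where the threshold of the fit across all genes is applied to its members, the count stands beside the share of all genes. The data were RNA-seq libraries of 3 WT and 3 *FGFR2* KO cell lines derived from HaCaT, a spontaneously immortalized human keratinocyte line, with 1 library per line. All 6 lines were grown in DMEM with fetal serum and received no stimulus before RNA was taken. KO lines were made with Cas9 and a guide RNA to exon 7 of *FGFR2*, the gene of a fibroblast growth factor receptor, and were expanded from single cells, so that each line can also differ from the others through its clonal origin. The sequenced WT lines are described as clonally expanded too, and the labels do not say which clone is which replicate.

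Purine nucleotides are made anew from small precursors or recovered from nucleosides and bases by salvage. Extracellular AMP is cut to adenosine by the ecto-enzyme NT5E (CD73), and inside the cell adenosine is either phosphorylated back to AMP by ADK or deaminated to inosine by ADA, which also acts on deoxyadenosine. PNP splits inosine and guanosine to the free bases hypoxanthine and guanine. HPRT1 attaches these bases, and APRT attaches adenine, to phosphoribosyl pyrophosphate to form nucleotides. AMPD2 and AMPD3 convert AMP to IMP. SAMHD1 breaks down deoxynucleoside triphosphates and DGUOK phosphorylates purine deoxynucleosides in mitochondria. Inherited lack of ADA or PNP harms lymphocytes above all, through the build-up of deoxynucleotides.

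The promoters of 4 of the genes are shown, *ADA* for the highest KO to WT ratio of the set and *AMPD3* as the only gene with a lower mean in KO. *HPRT1* and *APRT* were taken because their levels varied together across the libraries, as did those of some other members. Each promoter is the stretch of 250 bases before the start of the MANE transcript, in GRCh38.p14 from RefSeq, written 5′ to 3′ on the strand of the gene. Capitals mark the GC box GGGCGG on either strand in the *ADA*, *HPRT1* and *APRT* sequences, with overlapping matches run together, and the AP-1 motif TGANTCA in the *AMPD3* sequence.
ADA, chr20:44651700-44651949, minus strand: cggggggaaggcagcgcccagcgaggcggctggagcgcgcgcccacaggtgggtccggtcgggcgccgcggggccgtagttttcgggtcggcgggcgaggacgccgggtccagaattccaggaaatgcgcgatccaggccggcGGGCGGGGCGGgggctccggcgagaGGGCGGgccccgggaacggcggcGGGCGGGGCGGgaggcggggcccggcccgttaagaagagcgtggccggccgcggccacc
HPRT1, chrX:134459915-134460164, plus strand: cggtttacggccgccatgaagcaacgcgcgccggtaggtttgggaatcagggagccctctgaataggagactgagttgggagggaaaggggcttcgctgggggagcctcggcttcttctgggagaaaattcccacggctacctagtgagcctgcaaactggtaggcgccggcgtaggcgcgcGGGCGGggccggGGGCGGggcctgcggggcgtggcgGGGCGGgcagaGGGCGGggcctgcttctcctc
APRT, chr16:88811929-88812178, minus strand: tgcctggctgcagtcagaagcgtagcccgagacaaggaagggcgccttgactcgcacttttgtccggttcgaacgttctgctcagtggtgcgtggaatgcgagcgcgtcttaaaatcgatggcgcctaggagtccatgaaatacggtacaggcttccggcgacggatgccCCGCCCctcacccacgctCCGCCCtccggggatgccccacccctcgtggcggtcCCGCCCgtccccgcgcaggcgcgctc
AMPD3, chr11:10455014-10455263, plus strand: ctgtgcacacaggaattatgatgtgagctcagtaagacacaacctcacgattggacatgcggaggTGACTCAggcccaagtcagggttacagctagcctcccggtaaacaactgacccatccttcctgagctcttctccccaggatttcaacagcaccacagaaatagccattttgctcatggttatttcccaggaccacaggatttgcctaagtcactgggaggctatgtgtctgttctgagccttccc

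The *ADA* stretch held 5 GC boxes and was 80.0% G and C, above 96.7% of the 35116 promoters in the RefSeq table, whose median was 58.0%. The *AMPD3* stretch was 50.8% G and C and held 0 GC boxes, 1 CCAAT box and 1 AP-1 motif. Over the set, 8 of 10 promoters had a GC box, against 42.6% of all promoters, and 5 of 10 had CCAAT on either strand, against 32.0%. *HPRT1* and *ADK* had 4 GC boxes each, *APRT* 3, *PNP* and *NT5E* 2, and *AMPD2* and *DGUOK* 1. The 2 promoters without a GC box were those of *AMPD3* and *SAMHD1*, and the latter had 2 CCAAT boxes. The AP-1 motif was found in 1 of 10, against 6.6% of all promoters, and the E-box CACGTG in 1 of 10, that of *AMPD2*, against 6.3%. No member held the E2F-type motif TTTNNCGC, the CRE motif TGACGTCA, TATAAA or the interferon-type motif of GAAA, 2 free bases and GAAA, which stood in 5.9%, 1.6%, 10.7% and 3.0% of all promoters, and this says only that these letters are not in these windows. *AMPD2*, *AMPD3* and *ADK* have more than 1 start in the table, and only the MANE start was read. The shares of all promoters cover every start in the table, whether or not HaCaT cells express the gene. They are thus no matched background for the 10 members, and no excess of a motif is read from them.

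The libraries had an estimated depth of 67700000 to 87800000 fragments, and values were deposited as FPKM, in which fragments are divided by the length of the transcript and by the depth. *FGFR2* itself was at 21.6, 39.7 and 15.0 FPKM in WT replicates 1 to 3 and at 3.04, 2.26 and 4.31 FPKM in KO replicates 1 to 3, so that KO retained 12.6% of the WT mean. The 8 basal keratinocyte markers summed to 10890 to 17480 FPKM in WT and 14480 to 25860 FPKM in KO, led by the keratin gene *KRT5*. WT replicate 2 stood apart through the fibroblast gene *DCN*, at 15.5 FPKM, and the endothelial gene *CDH5*, at 4.92 FPKM. The fibroblast markers summed to 7.99 to 33.2 FPKM in WT and 6.92 to 12.6 FPKM in KO, led by *COL1A1*, with 6 of 8 genes averaging under 0.5 FPKM. The endothelial ones summed to 18.2 to 27.2 and 5.82 to 17.5 FPKM, with *KDR* at 0 in all 6. Nearly all of this was *VWF*, at 18.0, 19.2 and 27.1 FPKM in WT and 17.4, 15.6 and 5.66 FPKM in KO, and 2 of 4 genes averaged under 0.5 FPKM. Sums carried by 1 or 2 genes do not show that cells of these types were present. The melanocyte markers summed to 3.06 to 5.59 and 1.24 to 4.86 FPKM, and the leukocyte ones to 1.19 to 2.75 and 0.929 to 1.27 FPKM. Mitochondrially encoded transcripts took 21.5% to 27.6% of the summed FPKM in WT and 11.9% to 23.7% in KO, with the highest share in WT replicate 1 and the lowest in KO replicate 3. In bulk RNA, fewer cells of a kind and less RNA per cell cannot be told apart.

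To see which of the enzymes HaCaT cells transcribe most, levels were first compared within WT. *APRT* had the highest level, 78.6 ± 14.8 FPKM (SD, n = 3), above 88.2% of the 12241 genes that averaged 0.5 FPKM or more over the 6 libraries. *ADK* followed at 42.8 ± 8.25 FPKM and *DGUOK* at 37.9 ± 2.74 FPKM, and the ranges of these 2 genes overlapped. *PNP* at 27.9 ± 2.86, *AMPD3* at 25.0 ± 5.84 and *HPRT1* at 24.4 ± 4.10 FPKM formed a group whose neighbours overlapped, below *DGUOK* in each of the 3 libraries. *SAMHD1* lay at 9.70 ± 2.36 FPKM, and *AMPD2* at 6.35 ± 0.0774 and *NT5E* at 5.92 ± 1.78 FPKM overlapped below it. *ADA* had the lowest level of the set, 1.0 ± 0.232 FPKM, with only 5.99% of the tested genes below it. Among KO libraries *APRT* again lay above all others, but *ADK*, *DGUOK*, *HPRT1* and *PNP* ran into each other, and so did *SAMHD1*, *AMPD3*, *AMPD2*, *NT5E* and *ADA*.

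**Figure D1:**
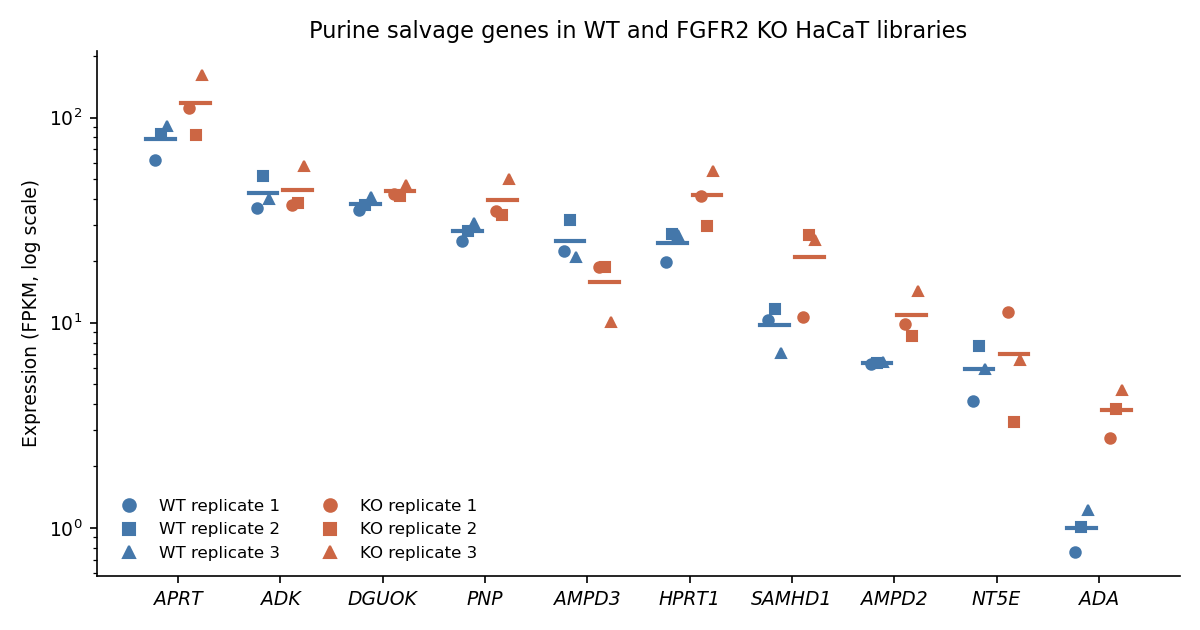
Expression of the 10 enzyme genes in FPKM on a log axis, ordered by the WT mean, with a point for each library (blue WT, orange *FGFR2* KO; circle, square and triangle for replicates 1, 2 and 3) and a line at the mean of each group. *ADA* sits lowest, with WT points from 0.764 to 1.23 FPKM and KO points from 2.74 to 4.68 FPKM, whereas the points of *ADK*, *NT5E*, *APRT* and *SAMHD1* overlap between the groups.

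The enzymes that decide the fate of adenosine differed from each other. *ADA* (ENSG00000196839), with 12 exons in its MANE transcript, is transcribed from the minus strand of chromosome 20 (44584896 to 44652252). It was at 0.764, 1.01 and 1.23 FPKM in WT replicates 1 to 3 and at 2.74, 3.80 and 4.68 FPKM in KO replicates 1 to 3. Each KO library lay above each WT library, with a KO mean of 3.74 ± 0.972 FPKM (SD, n = 3), 3.73 times the WT mean. On the log2(FPKM + 0.5) scale, which understates changes at such low levels, the difference was 1.48 (SE 0.25), and with a pseudocount of 0.1 in place of 0.5 it was 1.79. About 93 to 131 fragments in WT and 360 to 608 in KO stood behind these values, as worked out from the length of the MANE transcript and the estimated depth. The ratio without KO replicate 3, the highest library, was 3.26.

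*ADK* (ENSG00000156110), the kinase that competes with ADA for adenosine, lies on chromosome 10 from 74151202 to 74709963. Its levels were 36.3, 52.1 and 40.1 FPKM in WT and 37.3, 38.4 and 58.0 FPKM in KO. The groups overlapped, with a ratio of means of 1.04 and a log2 difference of 0.04 (SE 0.22), and its sign turned in 5 of 19 alternatives, which were median-of-ratios, quantile and nuclear-gene scaling and leaving out WT replicate 1 or KO replicate 3 (-0.16 without the latter). Chromosome 10 itself, which also carries *FGFR2*, had a lower median in KO on average, with overlap between the groups. Relative to all genes, the median of its 462 other tested genes was -0.43, -0.16 and -0.19 in KO replicates 1 to 3 and 0.02, 0.14 and -0.16 in WT, so that WT replicate 3 lay level with KO replicate 2. With the chromosome medians removed the difference of *ADK* was 0.30. The other chromosomes that carry members had KO to WT shifts of their medians between -0.05 and 0.07.

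Because *ADA* was higher in KO and *ADK* was not, their balance was examined within each library, where differences in scaling between libraries cancel. *ADK* exceeded *ADA* by 47.5, 51.4 and 32.6 times in WT and by 13.6, 10.1 and 12.4 times in KO. The ratios did not overlap, at 43.8 ± 9.90 and 12.0 ± 1.77 (SD, n = 3 each). Transcript of the kinase thus remained the more abundant of the pair in all 6 libraries. As the pair was picked on the differences of its genes, the separation of the ratios only restates them.

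*NT5E* (ENSG00000135318), on chromosome 6 from 85449584 to 85495791, encodes the surface enzyme that releases adenosine outside the cell. It was at 4.14, 7.69 and 5.92 FPKM in WT and at 11.3, 3.28 and 6.55 FPKM in KO. KO replicate 1 held the highest and KO replicate 2 the lowest value of all 6, so the KO lines spanned the WT range on both sides. The log2 difference of 0.12 (SE 0.41) went to -0.28 without KO replicate 1 and to -0.10 without WT replicate 1.

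The AMP deaminases, which share a reaction, differed in direction. *AMPD2* (ENSG00000116337), on chromosome 1 from 109616104 to 109632051, was almost level in WT, at 6.26, 6.40 and 6.40 FPKM, a coefficient of variation of 1.22%. In KO it was at 9.89, 8.62 and 14.3 FPKM, each above each WT library, with a mean of 10.9 ± 3.00 FPKM (SD, n = 3) or 1.72 times WT and a log2 difference of 0.71 (SE 0.20). *AMPD3* (ENSG00000133805), on chromosome 11 from 10308313 to 10507579, was the only member with a lower KO mean. It was at 22.4, 31.7 and 21.0 FPKM in WT and at 18.7, 18.7 and 10.1 FPKM in KO, so that each KO library lay below each WT library. The KO mean of 15.8 ± 4.98 FPKM was 0.633 times that of WT, and the log2 difference was -0.67 (SE 0.27). KO replicate 3 set much of this size, since the ratio was 0.748 and the log2 difference -0.39 without it.

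Within a library, *AMPD3* stood above *AMPD2* by 3.57, 4.96 and 3.28 times in WT. In KO the ratio was 1.89, 2.17 and 0.704, so that KO replicate 3 was the only library with more *AMPD2* than *AMPD3*. The ratios did not overlap between the groups, at 3.94 ± 0.897 in WT and 1.59 ± 0.779 in KO (SD, n = 3 each). This restates the opposite directions of the genes and is no further support. The MANE transcripts of these genes shared 0 stretches of 31 bases, and AMPD2 and AMPD3 are proteins of 825 and 767 residues.

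**Figure D2:**
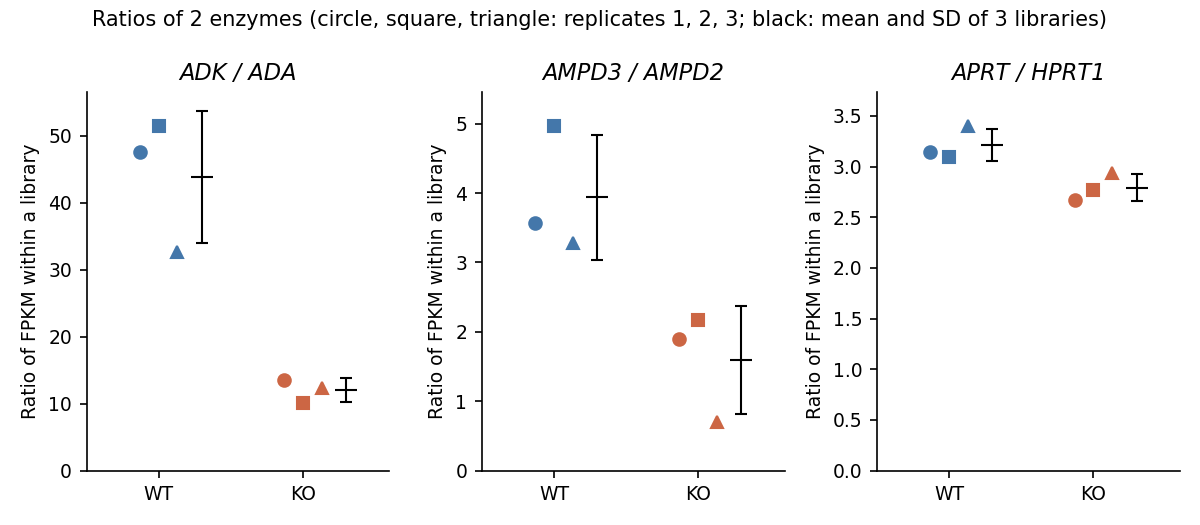
Ratio of the FPKM of *ADK* to *ADA*, *AMPD3* to *AMPD2* and *APRT* to *HPRT1* within each library, on linear axes from 0, with points for WT (blue) and *FGFR2* KO (orange) replicates and the mean and SD of 3 libraries in black. *ADK* to *ADA* went from 32.6 to 51.4 in WT and from 10.1 to 13.6 in KO, whereas *APRT* to *HPRT1* went from 3.10 to 3.40 in WT and from 2.68 to 2.94 in KO.

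Next came the enzymes that recover free bases. *PNP* (ENSG00000198805), the phosphorylase downstream of ADA, lies on chromosome 14 from 20461992 to 20477094. It was at 24.9, 28.1 and 30.6 FPKM in WT and at 35.0, 33.5 and 50.1 FPKM in KO. Each KO library lay above each WT library, with a ratio of means of 1.42 and a log2 difference of 0.48 (SE 0.19). *PNP* exceeded *ADA* by 28.4 ± 3.89 times in WT and 10.8 ± 1.97 times in KO (SD, n = 3 each).

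*HPRT1* (ENSG00000165704), on chromosome X from 134460165 to 134520513, returns hypoxanthine and guanine to IMP and GMP. It was at 19.7, 27.0 and 26.6 FPKM in WT and at 41.4, 29.5 and 55.2 FPKM in KO, with each KO library above each WT library. The KO mean of 42.0 ± 12.9 FPKM was 1.72 times that of WT, with a log2 difference of 0.74 (SE 0.24), and 1.45 times without KO replicate 3. *APRT* (ENSG00000198931), which occupies positions 88809339 to 88811937 of chromosome 16 (minus strand), does the same for adenine. It was at 62.0, 83.5 and 90.4 FPKM in WT and at 110.9, 81.7 and 161.9 FPKM in KO. Here KO replicate 2 fell inside the WT range, so the groups overlapped, with a ratio of 1.50 and a log2 difference of 0.55 (SE 0.26). Without KO replicate 3 these were 1.22 and 0.29.

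The proportion of *APRT* to *HPRT1* varied less than either gene did, although it was lower in KO. *APRT* stood above *HPRT1* by 3.15, 3.10 and 3.40 times in WT and by 2.68, 2.77 and 2.94 times in KO, or 3.21 ± 0.161 and 2.79 ± 0.131 (SD, n = 3 each), with each KO ratio below each WT ratio. For both genes KO replicate 3 was the highest library, KO replicate 1 the next and WT replicate 1 the lowest. The genes lie on different chromosomes, but all values of a library share its depth and scaling.

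The last pair acts on deoxynucleotides. *SAMHD1* (ENSG00000101347), at positions 36890229 to 36951893 of chromosome 20 (minus strand), was at 10.4, 11.7 and 7.08 FPKM in WT and at 10.7, 26.8 and 25.3 FPKM in KO. KO replicate 1 lay among the WT libraries and the other 2 KO lines well above them, so the ratio of 2.16 and the log2 difference of 0.99 (SE 0.36) came from KO replicates 2 and 3. *SAMHD1* is known to respond to interferon in some cells, and the median of the interferon-stimulated markers, set against the mean of the WT libraries on the log2 scale, was -0.06, 0.65 and -0.50 in WT and 0.36, 1.46 and 0.06 in KO. Of 11 such markers tested, 10 had a higher mean in KO, where 60.6% of all tested genes had a positive difference. At the unadjusted threshold 1 marker was higher, *ISG15* (1.28), against 10.2% of all tested genes. Without KO replicate 3 there were 4, beside 539 of the 12241 tested genes. The highest library was KO replicate 2 for both *SAMHD1* and the marker median. KO replicate 3 had a *SAMHD1* difference of 1.36 (1.45 in KO replicate 2) with a marker median near WT. The part of interferon in these *SAMHD1* values was not tested. *DGUOK* (ENSG00000114956), on chromosome 2 from 73926826 to 73958961, varied least between the groups among members that did not overlap. It was at 35.4, 37.5 and 40.8 FPKM in WT and at 42.6, 41.6 and 46.7 FPKM in KO, a ratio of 1.15 with a log2 difference of 0.20 (SE 0.13). Each KO library lay above each WT library, by less than 1 FPKM between the nearest 2. The ratio of *SAMHD1* to *DGUOK* overlapped between the groups, at 0.293, 0.311 and 0.173 in WT and 0.251, 0.646 and 0.541 in KO.

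Counted together, 9 of the 10 genes had a higher mean in KO and 1 a lower one, where 60.6% of all tested genes had a positive difference. The split was 8 and 2 with median-of-ratios, quantile or nuclear-gene scaling, and without KO replicate 1 or KO replicate 3. Without WT replicate 1 it was 7 and 3. All 3 KO libraries lay above all 3 WT libraries for 5 genes, *ADA*, *PNP*, *HPRT1*, *AMPD2* and *DGUOK*, where 18.3% of the 12241 tested genes did so, and below them for 1, *AMPD3*, where 5.77% did. With limma across all tested genes, 0 genes (0%) passed an adjusted p of 0.05 together with a log2 fold change of 0.5 in either direction, the smallest Benjamini-Hochberg adjusted p being 0.261. The targeted gene *FGFR2*, with a log2 difference of -2.73, also had a limma adjusted p of 0.261, so the lack of calls does not show a lack of change. The paper, which used DESeq2, reported differentially expressed genes. At an unadjusted p of 0.05 and the same fold change, 10.2% of genes were higher and 2.33% lower in KO, and of the 10 enzymes 4 were higher (*ADA*, *HPRT1*, *AMPD2* and *SAMHD1*) and 1, *AMPD3*, was lower. As the genes were chosen on this contrast, nothing is read from these counts. The median log2 difference was 0.51 over the 10 genes (0.29 without KO replicate 3) and 0.09 over all tested genes (0.07 without it). An exact two-sided permutation test of 3 against 3 libraries cannot give a p under 0.1, and any p here measures only the spread between these cell lines.

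**Figure D3:**
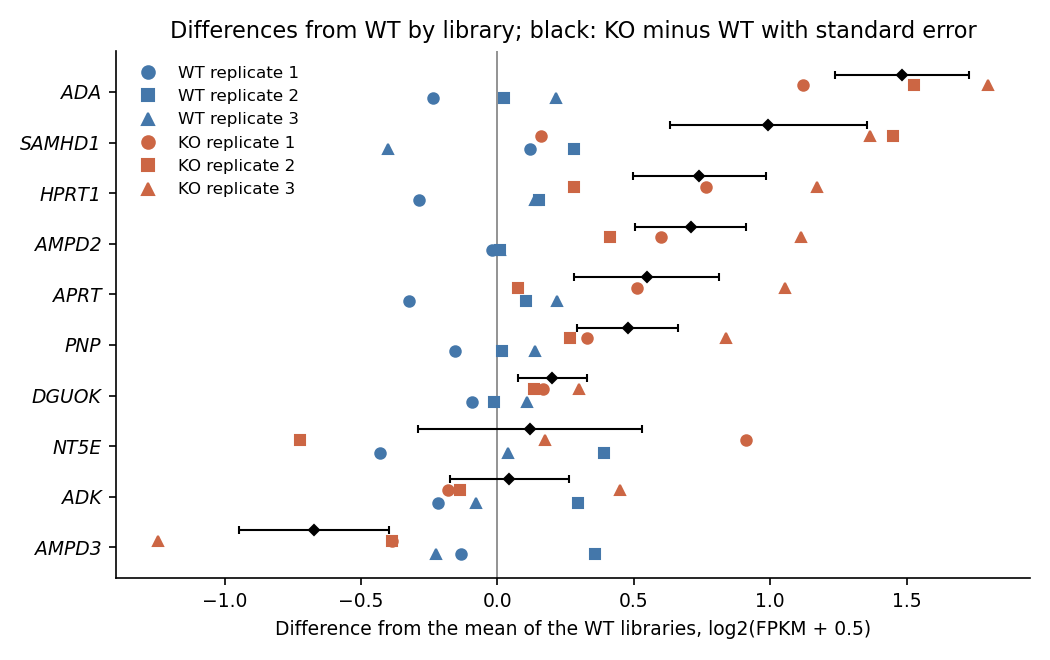
Difference of each library from the mean of the WT libraries on the log2(FPKM + 0.5) scale for each gene (blue WT, orange *FGFR2* KO; circle, square and triangle for replicates 1, 2 and 3), with the KO minus WT difference and its standard error as a black diamond and bar, from 1.48 for *ADA* to -0.67 for *AMPD3*. KO replicate 3 lies farthest from 0 for *ADA*, *HPRT1*, *AMPD2*, *APRT*, *PNP*, *DGUOK*, *ADK* and *AMPD3*, and the points of *NT5E* from KO replicates 1 and 2 fall on opposite sides of WT.

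The same libraries stood at the ends for most of the genes. KO replicate 3 was the highest library for 7 members and WT replicate 1 the lowest for 7. The median over the 10 genes, with the WT libraries as reference, was -0.19, 0.13 and 0.07 in WT replicates 1 to 3 and 0.42, 0.20 and 0.95 in KO replicates 1 to 3, while that of all tested genes was -0.04, 0.03 and 0.02 and 0.10, 0.05 and 0.15. KO replicate 3 also had the lowest mitochondrial share and WT replicate 1 the highest, and the part of this in the values of the members was not tested. With libraries scaled to their nuclear genes, and with median-of-ratios scaling, the counts past the unadjusted threshold were again 4 higher and 1 lower. Of the 12241 tested genes, 930 were higher and 400 lower with the former, and 785 and 521 with the latter, against 1251 and 285 in the main fit. Without KO replicate 3 there were 2 members past that threshold, both higher, beside 539 of all tested genes higher and 94 lower. Leaving out WT replicate 1 left 3 members, all higher, beside 767 genes higher and 194 lower. Leaving out WT replicate 2, in which *AMPD3* was highest, left 4 members, all higher, beside 979 genes higher and 162 lower.

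Other genes of purine metabolism were then taken from hand-written lists. Like the members, these lists and the marker lists were chosen with earlier results of these data known. Their counts are therefore a description, and nothing is read from how they compare with the share of all genes. Of 26 further salvage and breakdown genes, 21 were tested, 14 with a higher mean in KO and 7 with a lower one, and the median log2 difference was 0.27. At the unadjusted threshold 5 were higher and 0 lower, against the 10.2% and 2.33% of all genes. They included *NME1* (1.23) and *NME2* (0.64), which encode nucleoside diphosphate kinases, the nucleotidase gene *NT5C3B* (0.89) and *MTAP* (0.54), whose enzyme supplies the adenine that APRT uses. *NT5C2*, a cytosolic nucleotidase gene on chromosome 10, had the lowest log2 difference, -0.43. With median-of-ratios scaling these counts were 3 higher and 1 lower. Without WT replicate 1 or WT replicate 2, 3 were higher and 0 lower, and without KO replicate 3, 2 were higher and 0 lower. The median was 0.16 both with median-of-ratios scaling and without KO replicate 3.

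The genes of the de novo pathway, which builds IMP from phosphoribosyl pyrophosphate, had higher means in KO throughout, under each of the 4 scalings tried as well. All 13 were tested and 13 had a higher mean in KO, where 60.6% of all tested genes had a positive difference. Of the 13, 10 passed the unadjusted threshold as higher, against 10.2% of all tested genes, and 11 had all KO above all WT libraries, against 18.3%. The median log2 difference was 0.87. *GART* (1.25), *PAICS* (1.25), *PFAS* (1.15), *ATIC* (1.12) and *PRPS1* (1.12), which makes the phosphoribosyl pyrophosphate that HPRT1 and APRT also use, led the list. *ADSS1*, of the step from IMP towards AMP, was lowest at 0.14. Leaving out 1 library at a time gave 8 to 11 genes past the threshold. As for the salvage enzymes, KO replicate 3 had the highest median of this list, 1.42, followed by KO replicate 1 at 0.70 and KO replicate 2 at 0.48.

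Around NT5E, 10 of 24 genes of extracellular nucleotide breakdown, adenosine receptors and nucleoside transport were tested. Of these, 8 had a higher and 2 a lower KO mean, where 60.6% of all tested genes had a positive difference. At the unadjusted threshold 4 were higher and 0 lower, against 10.2% and 2.33% of all tested genes. They were *SLC29A1* (1.18), the equilibrative transporter through which adenosine enters cells, the nucleobase transporter gene *SLC43A3* (1.13), the adenosine receptor gene *ADORA2B* (0.68) and *ENTPD3* (0.56), which encodes an ecto-enzyme that shortens nucleotides. *SLC29A1* was at 19.9, 14.1 and 28.6 FPKM in WT and at 37.7, 35.5 and 73.3 FPKM in KO, so the transporter and *ADA* were both higher in each KO library than in each WT library. *SLC29A3*, on chromosome 10, was lowest at -0.57. The 4 genes became 2 with median-of-ratios scaling, without WT replicate 1 and without KO replicate 3.

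In the list of deoxynucleotide supply, which shares *SAMHD1* and *DGUOK* with the set, 12 of 13 genes had a higher KO mean, where 60.6% of all tested genes had a positive difference, and the median was 0.65 (0.43 without KO replicate 3). At the unadjusted threshold 8 were higher and 0 lower, against 10.2% and 2.33% of all tested genes. *RRM2* (1.09) and *RRM1* (0.53), the subunits of ribonucleotide reductase, *DUT* (0.93), *DCTPP1* (0.93) and the thymidine kinase gene *TK1* (0.65) were among them, and the mitochondrial *TK2* was lowest at -0.23. The 8 genes became 5 with median-of-ratios scaling, 4 without WT replicate 1 or WT replicate 2, and 2 without KO replicate 3. Replication markers were higher in KO as well. All 10 passed the unadjusted threshold as higher, against the same 10.2%, among them *MCM6* (1.56) and *MCM2* (1.25) of the replicative helicase and its partner *CDC45* (1.55), with a median of 1.03 and a summed level of 708, 480 and 853 FPKM in WT replicates 1 to 3 and 1188, 1117 and 1941 FPKM in KO replicates 1 to 3. The 8 mitosis markers all overlapped between the groups, with a median of -0.03. This median had no stable sign, at 0.01 with TPM scaling and 0.04 without WT replicate 1, but -0.14 with median-of-ratios scaling and -0.18 without WT replicate 2. The highest sum of the replication markers was again that of KO replicate 3, but the lowest was that of WT replicate 2, where *AMPD3* was highest. The part of replication in the values of the salvage genes was not tested.

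**Figure D4:**
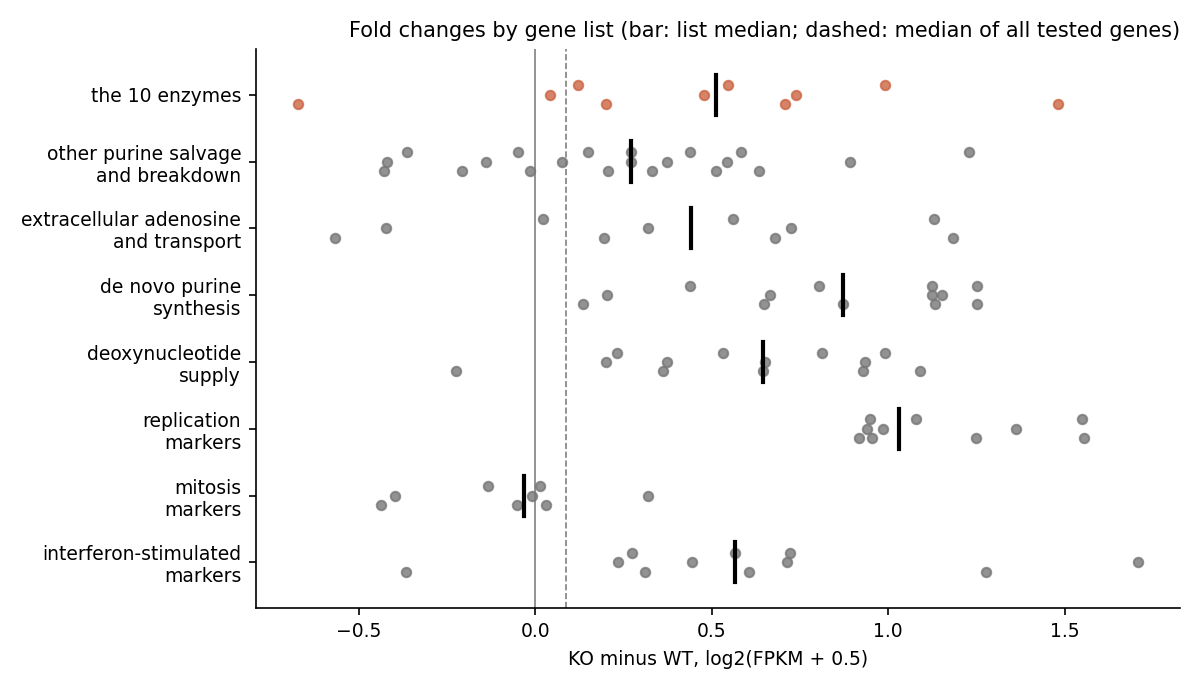
KO minus WT difference on the log2(FPKM + 0.5) scale for each tested gene (points) of the 10 enzymes (orange) and of 7 other gene lists (grey), with the list median as a black bar, 0 as a solid line and the median of all tested genes, 0.09, as a dashed line. The medians run from -0.03 for mitosis markers to 1.03 for replication markers, with the 10 enzymes at 0.51.

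Finally, the genes with the pattern most like that of *ADA* were named by Pearson's r of log2(FPKM + 0.5) over the 6 libraries, a description of likeness in which the shared difference between the groups carries much of the value. They were *TWSG1* (0.991), *DHRSX* (0.988), *FBF1* (0.987), *TNFRSF21* (0.987) and *NUP62CL* (0.987), and 97 genes, 0.793% of those tested, had an r above 0.95. *TWSG1* ranged from 5.01 to 5.32 FPKM in WT and from 6.13 to 7.27 FPKM in KO, a log2 difference of 0.37 and thus much smaller than that of *ADA*. *TNFRSF21*, which encodes a death receptor, was at 15.0 FPKM on average in WT and 26.3 FPKM in KO.

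Reads of neighbouring genes could enter a few of the values, since the sources used here do not state whether strand was used in counting. Of the MANE transcript of *PNP*, 20.7% of the stretches of 31 bases also occurred on the other strand in the lncRNA ENSG00000258908, and other-strand shares were 8.18% for *SAMHD1*, 8.0% for *AMPD2*, 3.73% for *DGUOK* and 1.16%, from *PKIG*, for *ADA*. *PKIG* was at 1.43, 1.50 and 2.04 FPKM in WT and at 3.59, 1.68 and 2.36 FPKM in KO, and its part in the values of *ADA* was not tested. With both strands counted together, *SAMHD1* shared most with its neighbour *TLDC2*, 181 stretches, and the next gene name shared 75. *TLDC2* did not exceed 0.181 FPKM, and the split of its stretches by strand was not recorded. On the same strand, *SAMHD1* shared 4.7% with other genes and *HPRT1* 0.22% with a processed pseudogene, *HPRT1P3*. The other members shared none on the same strand.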

How the data were processed

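RNA of 3 WT and 3 *FGFR2* KO HaCaT lines had been sequenced as stranded poly(A) libraries. The authors deposited FPKM per gene for each library; the submitters' processing notes name fastp 0.20.0 and kallisto 0.46.1 with GRCh38.p13, and GENCODE 37 was used for gene models. How FPKM was calculated is not given in the sources used here. Symbols and positions came from GENCODE 44 on the same build, for 21400 of 21475 genes, after 18 Y copies of pseudoautosomal genes were left out. Depth was estimated from the steps of low values; 62.0% of 4250 low values were whole within 0.02 (4% by chance), too few for a count test.

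The 12241 genes averaging 0.5 FPKM or more were fitted on log2(FPKM + 0.5) using limma 3.58.1 (R 4.3.3), with a mean-variance trend and Benjamini-Hochberg adjustment (adjusted p at most 0.05, absolute log2 fold change at least 0.5). The fit was tested on simulated data. Named were the 10 members, *FGFR2*, up to 5 genes per list past the unadjusted threshold, the highest and the lowest of each list, and the 5 genes most like *ADA*; *CDH5*, *DCN*, *KDR*, *PKIG*, *TLDC2* and *HPRT1P3* serve as checks. The values of 1 gene that this rule names are not reported here. The members and lists were chosen with earlier results of these data known. Same-numbered replicates were not paired: their deviations correlated at -0.21, 0.23 and 0.05. Alternatives were other pseudocounts, filters, scalings and empirical Bayes steps, removal of chromosome medians, library weights, a replicate block and leaving out each library.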

Additional observations from a re-analysis of the deposited data

How the results depend on the processing

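With limma's library weights, 1396 genes passed the adjusted threshold (1160 higher and 236 lower in KO), against 0 in the fit without weights. Among them were 5 members, *ADA*, *PNP*, *HPRT1*, *APRT* and *AMPD2*, all higher, and *AMPD3* was not past the unadjusted threshold there. The weights gave WT replicate 1 89.7% of the weight of its group, and the cause was not tested. In each of the other 18 alternatives 0 genes passed, so the leave-one-out range was 0 to 0. At the unadjusted threshold, leaving out 1 library gave 633 (without KO replicate 3; 961 without WT replicate 1) to 2262 genes (without KO replicate 2) against 1536, and 2 to 6 members against 5. With the replicate block, 0 genes passed after adjustment, and 1762 genes and 6 members (5 higher, 1 lower) passed unadjusted; the numbers are shared only as numbers. The split into higher and lower moved from 1251 and 285 to 785 and 521 with median-of-ratios scaling and to 803 and 502 with quantile normalization; the former moved the median log2 difference of all genes from 0.09 to -0.02, and the members' median from 0.51 to 0.40.

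The log2 difference kept its sign in all 19 alternatives for *ADA* (1.23 to 1.79), *PNP* (0.30 to 0.58), *HPRT1* (0.52 to 0.97), *APRT* (0.29 to 0.78), *AMPD2* (0.51 to 0.86), *AMPD3* (-0.82 to -0.39), *SAMHD1* (0.57 to 1.41) and *DGUOK* (0.08 to 0.26). It changed sign for *ADK* in 5 (-0.16 to 0.30) and for *NT5E* in 2 (-0.28 to 0.77). Depth limits *ADA* most, with 93 fragments in its lowest library.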
